A study of Mus musculus with 4 samples.

Results

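The respiratory chain and ATP synthase genes are the nuclear genes of the mitochondrial machinery that makes ATP. They were taken as every gene of the count table whose symbol starts with Nduf, with Sdha, Sdhb, Sdhc or Sdhd, with Uqcr, with Cox4 to Cox8, or with Atp5, and RefSeq accessions of a gene were summed. This gave 98 of 24148 genes on 19 chromosomes, of which 86 carry subunit names and 12 are assembly factors (names starting with Ndufaf or Sdhaf). These genes are called members below. RNA sequencing had been done on primary microglia, which are brain-resident macrophages, from mice. The cells were detached from mixed glial cultures by shaking and then replated, with no sort for microglia described. The 2 control libraries came from cells labelled as control, and the 2 LPS libraries from cells given lipopolysaccharide, an outer membrane component of Gram-negative bacteria recognised by Tlr4, for 4 h at a dose of 10 ng/ml. The labels name no genotype, strain or age for either group. Nor do they say whether the replicates are separate cultures or animals. A p-value here therefore measures the spread between libraries alone, and that spread may be technical.

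In the inner mitochondrial membrane, complex I takes electrons from NADH and complex II takes them from succinate. Ubiquinone carries them to complex III and cytochrome c carries them on to complex IV, which reduces oxygen. Complexes I, III and IV pump protons, and ATP synthase uses the returning protons to make ATP. In macrophages activated by LPS, metabolism is known to shift from respiration towards glycolysis, and electron flow in complexes I and II is a known source of signals for inflammatory gene expression. A core of catalytic subunits is encoded in mitochondrial DNA. These were not analysed here, so every value below concerns nuclear genes.

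The libraries held between 3617176 and 5095630 counts, and the members took 17177 to 24908 of them in a library. Accessions without a symbol held 20.1% to 24.9% and Lars2 5.02% to 13.0% of counts. Levels are given as CPM, counts per 1000000 after edgeR's TMM scaling, with factors between 0.82 and 1.28. Of 10 markers of microglia and macrophages, 9 had counts (Itgam was at 0), and their summed level was 2681 and 2062 CPM in control and 1803 and 1495 CPM in LPS. All 8 astrocyte markers had counts, with sums of 115 and 312 CPM in control and 131 and 443 CPM in LPS, and 8 of 9 oligodendrocyte lineage markers had counts, with sums of 399.7 and 66.1 CPM in control and 409.9 and 58.2 CPM in LPS. Sums over 7 neuronal and 5 fibroblast markers lay between 54.6 and 70.1 CPM and between 26.0 and 64.8 CPM. All of these had counts, but only 3 of the 7 and 4 of the 5 reached a mean count of 10, the minimum for testing. The astrocyte sum was high in both libraries numbered 2 and the oligodendrocyte sum in both numbered 1. Single markers departed from these sums. The astrocyte marker S100b was high in those numbered 1, with 37.3 and 2.71 CPM in control and 39.4 and 2.66 CPM in LPS. Mbp, which has 8 accessions and so an uncertain level, followed the number as the oligodendrocyte sum did. Unlike that sum it was lower in LPS at either number, with 59.6 and 19.2 CPM in control and 21.4 and 8.46 CPM in LPS (-1.39 ± 0.67, 95% interval -3.05 to 0.28, adjusted p = 0.32 by edgeR). Their part in the results below was not tested. Fewer cells of a type and less RNA per cell cannot be told apart in such libraries.

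Many nuclear genes of respiration are known targets of nuclear respiratory factor 1 (gene Nrf1) and of the ETS family factor GABP, and the promoters of the members are shown here because shared sequence is what the name-based choice did not use. RefSeq promoter windows (GRCm38.p6, 250 bases before to 50 after the start) were matched for 80 of 98 members. Searched on both strands, the NRF1 letters (GCGCA, any base, then GCGC) were found in 21 of 80 members (26.2%), against 11.2% of genes that passed the count minimum and 5.19% of all genes with a window. The ETS letters CCGGAAG were found in 22 members (27.5%, against 19.6% and 9.93%), and the YY1 letters AAGATGGC in 11 (13.8%, against 5.54% and 3.19%). TATAAA was found in 9 (11.2%, against 8.55% and 15.7%). NRF1 or ETS letters stood in 38 windows of members and both in 5. For each complex, the 180 bases before the start follow for a tested member with such matches upstream. Not every tested member was open to this choice, so the member shown need not have the most matches of its complex. Sequences read 5′ to 3′ on the gene's strand, with NRF1 and ETS letters of either strand in capitals.
Ndufb4 (chr16:37654369-37654548, minus strand): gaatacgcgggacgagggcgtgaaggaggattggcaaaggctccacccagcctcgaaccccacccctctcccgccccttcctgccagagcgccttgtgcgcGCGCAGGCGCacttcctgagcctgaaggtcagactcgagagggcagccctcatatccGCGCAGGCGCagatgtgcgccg
Sdha (chr13:74350241-74350420, minus strand): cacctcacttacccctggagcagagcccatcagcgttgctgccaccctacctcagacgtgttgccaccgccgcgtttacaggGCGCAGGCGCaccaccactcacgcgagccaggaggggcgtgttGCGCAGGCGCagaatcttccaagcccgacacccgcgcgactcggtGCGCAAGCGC
Uqcrh (chr4:116075071-116075250, minus strand): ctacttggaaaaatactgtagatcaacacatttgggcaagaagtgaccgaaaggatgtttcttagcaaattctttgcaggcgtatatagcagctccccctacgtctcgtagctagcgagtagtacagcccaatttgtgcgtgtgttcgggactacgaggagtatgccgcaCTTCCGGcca
Cox6a1 (chr5:115348959-115349138, minus strand): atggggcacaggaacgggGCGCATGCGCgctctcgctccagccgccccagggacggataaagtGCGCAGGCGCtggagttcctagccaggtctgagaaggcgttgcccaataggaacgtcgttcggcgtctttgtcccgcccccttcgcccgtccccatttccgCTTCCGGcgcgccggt
Atp5h (chr11:115419920-115420099, minus strand): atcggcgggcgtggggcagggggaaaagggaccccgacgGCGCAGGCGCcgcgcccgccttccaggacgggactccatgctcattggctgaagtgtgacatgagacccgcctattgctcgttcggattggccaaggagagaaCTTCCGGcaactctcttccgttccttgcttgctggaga
The first NRF1 match in Cox6a1 reads on both strands, and no NRF1 match overlapped an ETS match in these stretches. A match describes the letters and does not show a bound site.

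LPS and control cells were compared across all genes, and members were read from that result. No member passed the test in either direction: 0 of 79 tested members were called higher and 0 lower by edgeR's quasi-likelihood test at an adjusted p under 0.05, where 8.34% of all 9548 genes tested were called (6.55% higher and 1.79% lower). At an unadjusted p under 0.05 edgeR found 0 members, against 21.3% of all genes, and DESeq2 also found 0. DESeq2 called 0 members, where it called 10.5% of the genes to which it gave an adjusted p. Log2 fold changes of members ran from -0.78 (Ndufv3) to 0.40 (Ndufc2), with a median of 0.056 beside -0.046 for all genes. With TMM scaling no member reached 2-fold, which 1573 of all genes tested (16.5%) did.

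**Figure D1:**
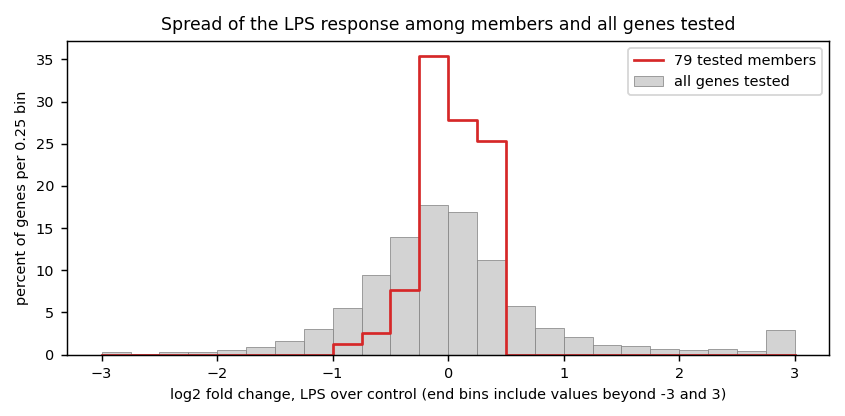
Percent of genes (vertical axis) in each 0.25-wide bin of the log2 fold change of LPS over control (horizontal axis), for all 9548 genes tested (grey bars) and the 79 tested members (red line). All members lie between -0.78 and 0.40, inside the wider spread of all genes.

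A missed threshold alone does not show that a level stayed the same, so the 95% intervals were read. With TMM scaling, the interval of 63 of 79 members lay wholly between a log2 of -1 and 1, that is, within 2-fold either way. This held for 26.8% of all genes. Members are more deeply counted than most genes, with a median mean count of 189 beside 74.4. Where the mean count was 50 or more, the interval lay within 2-fold for 62 of 67 members and for 40.7% of all. These shares were read with TMM scaling alone. With total-count scaling the values of members ran from -1.25 to -0.021, and the intervals of that fit were not read. Replicates of a member differed by a median of 0.19 (control) and 0.18 (LPS) on the log2(CPM + 1) scale, and the 2 groups' means by 0.18. For all genes tested these medians were 0.35, 0.33 and 0.35. A mean of 2 libraries varies less than a single library. Similar sizes therefore do not show that the groups differed no more than replicates. In simulated data of the same comparison (9548 genes), 100 genes were changed by a log2 of 1 and 100 by 2. The test called 2.00% and 55.0% of these. Fewer genes were changed there than the 796 called in the data, which makes the adjusted threshold stricter. The changed genes were also drawn from all genes and not from the more deeply counted members. How often a 2-fold change of a member would have been called cannot be read from it.

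**Figure D2:**
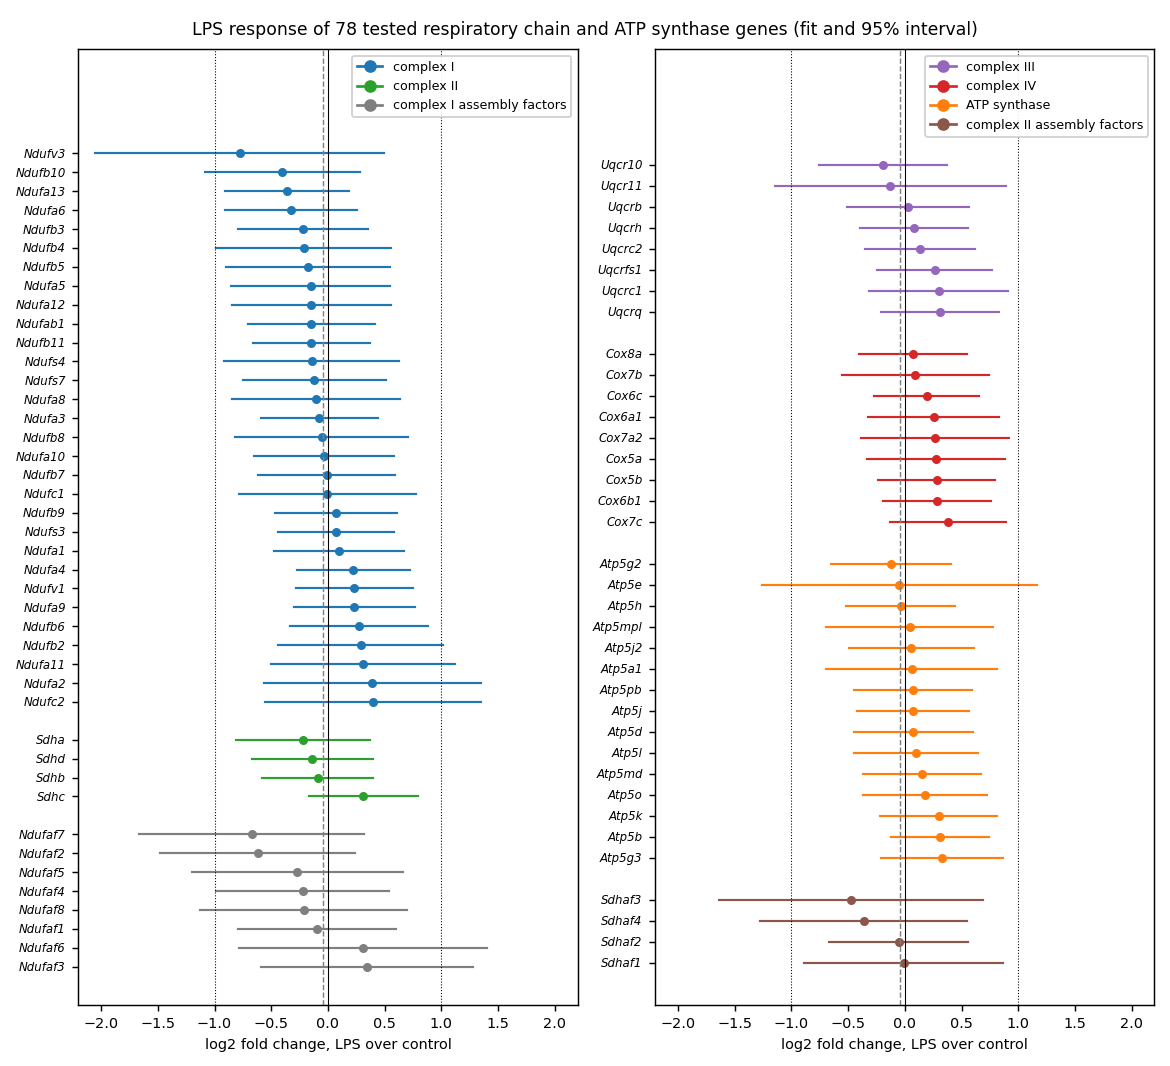
Log2 fold change of LPS over control (dots, horizontal axis) with its 95% interval (lines) for 78 of the 79 tested members, coloured by complex. Dotted lines mark 2-fold, the dashed line the median of all genes tested (-0.046); the 9 complex IV genes all lie right of 0, and under total-count scaling all 79 members lie left of it.

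The sign of these small values depends on the scaling. TMM scaling sets levels against the bulk of genes. With total-count scaling the median of all genes was -0.48 in place of -0.046, and all 79 members had values below 0, -1.25 to -0.021, again with no call (smallest adjusted p = 0.12). As a share of all counts the members made up 0.475% and 0.61% in control and 0.406% and 0.456% in LPS, so that both LPS libraries lay below both controls. Set against the median of all genes, the median of members stood 0.10 above it with TMM scaling and 0.10 above it with total-count scaling. That offset was 0.00045 with a mean count of at least 50, 0.012 without control replicate 1 and 0.33 with no filter. 47 of 79 members lay above the median of all genes under TMM and 47 under total-count scaling. Both LPS libraries lay above both controls for 23 of 79 members, beside 24.7% of all genes, and below them for 13, beside 25.8%. The groups overlapped for 43. Values below are TMM-scaled, and each log2 fold change is LPS over control with its standard error, its 95% interval and the adjusted p of edgeR's test.

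Complex I, the NADH dehydrogenase and entry point of the chain, is named by 39 listed genes, of which 31 were tested. Their summed level was 1031 and 1104 CPM in control and 1047 and 1073 CPM in LPS, and the groups overlapped. The median log2 fold change was -0.057 (range -0.78 to 0.40), with 12 values above and 19 below 0. Of the core subunits that carry electrons, Ndufv1, which binds NADH and flavin, had 38.7 and 39.7 CPM in control and 47.1 and 44.9 CPM in LPS. Both LPS libraries of Ndufv1 stood above the controls (log2 fold change 0.23 ± 0.21, 95% interval -0.28 to 0.75, adjusted p = 0.62). For the core subunit Ndufs7, an iron-sulfur protein, the levels were 18.3 and 17.6 CPM in control and 17.3 and 15.7 CPM in LPS. Here both LPS libraries lay below the controls (-0.12 ± 0.25, 95% interval -0.75 to 0.51, adjusted p = 0.86). Ndufs3, another core subunit, which overlaps Kbtbd4 on the opposite strand, had 44.0 and 41.9 CPM in control and 45.0 and 45.2 CPM in LPS (0.072 ± 0.21, 95% interval -0.44 to 0.58, adjusted p = 0.90). The intervals of these 3 core subunits all included 0 and lay within 2-fold. Ndufs1, Ndufs8 and Ndufv2, the remaining named iron-sulfur subunits, had next to no counts and are described with the untested members.

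Among the accessory subunits, which surround the core, Ndufa13 and Ndufb10 had the lowest values after Ndufv3. Ndufa13, also known as GRIM-19, had 52.4 and 51.7 CPM in control and 36.6 and 44.5 CPM in LPS. Both LPS libraries lay under the controls, but the difference was not called (-0.36 ± 0.22, 95% interval -0.91 to 0.19, adjusted p = 0.44). Its exons overlap those of Tssk6 on the opposite strand. Ndufv3 rests on counts of 12 and 26 in control, 13 and 7 in LPS, has 2 accessions and so an uncertain level (-0.78 ± 0.51, 95% interval -2.05 to 0.49, adjusted p = 0.47). At the other end, Ndufc2 had 8.74 and 5.62 CPM in control and 10.6 and 8.22 CPM in LPS, with overlapping groups (0.40 ± 0.38, 95% interval -0.55 to 1.35, adjusted p = 0.65). Per transcript length, Ndufa4 was the most abundant gene of this name group, at 166 CPM per kb (libraries 151 to 193), followed by Ndufb9 at 94.6 CPM per kb (libraries 82.8 to 102), and Ndufa2 the least among tested genes with 1 accession, at 7.06 CPM per kb (libraries 5.76 to 8.45). The ranges of Ndufa4 and Ndufb9 did not overlap, and Ndufb9 shares exon sequence with the model Gm49356 on the same strand. The range of Ndufa2 overlapped that of the next lowest gene (libraries 6.66 to 9.82). Ndufa13, Ndufb10 and Ndufb9 were named after their values were seen.

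Complex II, succinate dehydrogenase, is the enzyme shared by the citric acid cycle and the chain, and all 4 of its subunit genes were tested. The summed level was 349 and 373 CPM in control and 344 and 365 CPM in LPS, with overlapping groups. Sdha (chr13:74322255-74350240, GRCm38.p6), the flavoprotein that oxidises succinate and whose promoter carries 3 NRF1 matches, had 113 and 136 CPM in control and 91.9 and 122 CPM in LPS. Replicates numbered 2 were higher in both groups and the groups overlapped (-0.22 ± 0.24, 95% interval -0.81 to 0.37, adjusted p = 0.69). Sdhb, the iron-sulfur subunit, had 88.2 and 85.4 CPM in control and 85.2 and 77.8 CPM in LPS (-0.091 ± 0.20, 95% interval -0.58 to 0.39, adjusted p = 0.86), with both LPS libraries just under the controls. Of the membrane anchors, Sdhd had 54.8 and 63.6 CPM in control and 50.8 and 56.8 CPM in LPS, which overlapped (-0.14 ± 0.21, 95% interval -0.67 to 0.39, adjusted p = 0.80). Sdhc, the other anchor, had 93.8 and 88.0 CPM in control and 117 and 109 CPM in LPS, and its LPS libraries lay above both controls (0.31 ± 0.19, 95% interval -0.17 to 0.79, adjusted p = 0.45). The median over the complex was -0.12, and no interval left the 2-fold band. Per transcript length Sdhb was highest, at 73.7 CPM per kb (libraries 68.1 to 77.2), and Sdhc lowest, at 32.1 CPM per kb (libraries 27.7 to 36.8). Sdhd and Sdha stood between at 45.9 and 39.9 CPM per kb, with overlapping ranges. The range of Sdha (libraries 31.7 to 47.0) also overlapped that of Sdhc.

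Complex III passes electrons from ubiquinol to cytochrome c, and its 8 Uqcr genes were all tested. Together they had 604 and 652 CPM in control and 690.1 and 680.3 CPM in LPS, so that both LPS libraries lay above both controls by a small margin (ratio of means 1.09). Uqcrfs1, the Rieske iron-sulfur protein, had 70.4 and 61.4 CPM in control and 82.0 and 76.1 CPM in LPS. Its LPS libraries lay above the controls without a call (0.26 ± 0.20, 95% interval -0.25 to 0.77, adjusted p = 0.56). The core protein gene Uqcrc1 had 101 and 70.1 CPM in control and 108 and 102 CPM in LPS. The other, Uqcrc2, had 132 and 152 CPM in control and 149 and 163 CPM in LPS. The control replicate 2 of Uqcrc1 was low and both LPS libraries lay above the controls (0.30 ± 0.25, 95% interval -0.32 to 0.91, adjusted p = 0.58), and the groups of Uqcrc2 overlapped (0.14 ± 0.20, 95% interval -0.35 to 0.62, adjusted p = 0.78). The small subunits spanned the range of the complex, from Uqcr10 with 40.0 and 44.0 CPM in control and 39.9 and 33.6 CPM in LPS (-0.19 ± 0.23, 95% interval -0.75 to 0.37, adjusted p = 0.72) to Uqcrq with 44.2 and 50.6 CPM in control and 60.6 and 57.0 CPM in LPS (0.31 ± 0.21, 95% interval -0.21 to 0.83, adjusted p = 0.49). The hinge protein gene Uqcrh was the most abundant per transcript length, at 206 CPM per kb (libraries 189.3 to 214.3), and differed by a log2 of 0.079 (interval -0.40 to 0.56). Its range just overlapped that of the next gene (171 CPM per kb, libraries 156 to 189.7). The median over the complex was 0.11.

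Complex IV, cytochrome c oxidase, had the highest median of the groups. Of 18 listed genes 9 were tested, and the sum over them was 759 and 782 CPM in control and 898 and 889 CPM in LPS, 1.16 times the control mean in LPS (771 ± 15.9 and 893 ± 5.94 CPM, SD, n = 2 each). All 9 tested genes had values above 0 in the main fit with TMM scaling (0.070 to 0.38, median 0.27) and below 0 under total-count scaling (median -0.16). In other TMM fits, 7 of 9 were above 0 with a mean count of at least 50, and 8 of 9 without control replicate 1 or without LPS replicate 2. Above the median of all genes lay 9 of 9 under either scaling, and 8 of 9 in the TMM fits without control replicate 1 or without LPS replicate 2. For 6 of 9 both LPS libraries lay above both controls, against 24.7% of all genes. No gene of the complex was called, and its sum was given no p, since the group was set with results of these data in view.

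Cox7c, a small membrane subunit, had 76.0 and 67.2 CPM in control and 98.6 and 88.0 CPM in LPS, the highest value of the complex (0.38 ± 0.20, 95% interval -0.13 to 0.89, adjusted p = 0.38). Cox6b1, which faces the intermembrane space, had 81.8 and 79.8 CPM in control and 98.1 and 98.8 CPM in LPS. Its replicates lay closer to each other than to the other group, and the interval still included 0 (0.29 ± 0.19, 95% interval -0.19 to 0.76, adjusted p = 0.48). Cox5b, a zinc-binding subunit on the matrix side, had 72.8 and 83.9 CPM in control and 89.5 and 101 CPM in LPS (0.28 ± 0.21, 95% interval -0.23 to 0.80, adjusted p = 0.53). The groups of its partner Cox5a overlapped, with 90.3 and 70.5 CPM in control and 109 and 85.1 CPM in LPS (0.28 ± 0.24, 95% interval -0.33 to 0.88, adjusted p = 0.62). Cox6c, the most abundant of the complex per transcript length at 242 CPM per kb (libraries 224 to 262), had 113 and 115 CPM in control and 132 and 129 CPM in LPS (0.19 ± 0.18, 95% interval -0.27 to 0.65, adjusted p = 0.65). Its exons overlap those of Vps13b on the opposite strand. Cox6a1, the broadly expressed form whose promoter is printed above, had 25.7 and 28.7 CPM in control and 34.4 and 30.4 CPM in LPS, with both LPS libraries higher (0.25 ± 0.23, 95% interval -0.32 to 0.83, adjusted p = 0.63). Cox7a2 had 76.0 and 54.1 CPM in control and 86.6 and 69.6 CPM in LPS, where the replicates of a group differed by more than the group means (0.27 ± 0.26, 95% interval -0.38 to 0.91, adjusted p = 0.66). Cox8a differed least, with 91.1 and 87.8 CPM in control and 93.1 and 94.7 CPM in LPS (0.070 ± 0.19, 95% interval -0.40 to 0.54, adjusted p = 0.89). Cox7b had 133 and 195 CPM in control and 156 and 193 CPM in LPS, with replicate 2 high in both groups (0.092 ± 0.26, 95% interval -0.56 to 0.74, adjusted p = 0.90). Cox5a, Cox5b and Cox7b were added after their values were seen, to complete the complex. Ndufa4, named for complex I, is now known as a subunit of complex IV. It had 95.3 and 91.8 CPM in control and 118 and 101 CPM in LPS (0.22 ± 0.20, 95% interval -0.28 to 0.72, adjusted p = 0.62), and counting it with complex IV left the median at 0.26.

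ATP synthase is covered by 17 listed Atp5 genes, 15 of them tested. In sum they had 1675 and 1771 CPM in control and 1873 and 1933 CPM in LPS, with both LPS libraries above both controls (ratio of means 1.10). The median log2 fold change was 0.073 (range -0.12 to 0.33). Singly, both LPS libraries lay above both controls for 5 of 15 genes, against 24.7% of all genes, and the groups overlapped for 10. The sum weighs Atp5b most. Atp5b (chr10:128083307-128090388), the catalytic beta subunit, was the most counted member of all. It had 428 and 425 CPM in control and 513 and 545 CPM in LPS, with both LPS libraries above the controls (0.31 ± 0.17, 95% interval -0.12 to 0.74, adjusted p = 0.40). Atp5a1, the alpha subunit, had 126 and 173 CPM in control and 119.8 and 191 CPM in LPS. Its replicates numbered 2 were high in both groups and the groups overlapped (0.059 ± 0.30, 95% interval -0.70 to 0.81, adjusted p = 0.95). The proton-carrying ring subunit c is encoded by 3 genes. Atp5g3 had 108 and 86.8 CPM in control and 130.4 and 114 CPM in LPS (0.33 ± 0.22, 95% interval -0.21 to 0.87, adjusted p = 0.48), and Atp5g2 had 112 and 98.2 CPM in control and 106 and 86.8 CPM in LPS (-0.12 ± 0.21, 95% interval -0.65 to 0.41, adjusted p = 0.82). These 2 copies marked the highest and the lowest value of the complex. Atp5g1 had counts of 2 and 1 in control, 0 and 0 in LPS over 2 accessions and was not tested. Atp5l, subunit g of the membrane part, was the most abundant member per transcript length, at 293 CPM per kb (libraries 245 to 320.2), just above Atp5b at 249 CPM per kb (libraries 222 to 284), and the ranges of the 2 overlapped. It differed by a log2 of 0.097 (interval -0.45 to 0.64).

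**Figure D3:**
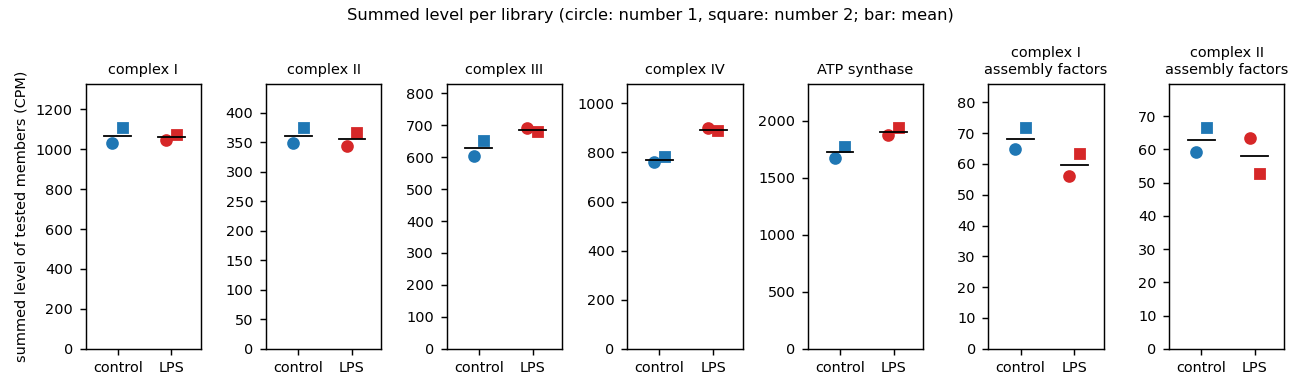
Summed level (vertical axes, CPM, each from 0) of the tested members of each complex or assembly factor group in the 2 control (blue) and 2 LPS (red) libraries; bars are group means. Complex I and II overlap between groups, and complex III, IV and ATP synthase lie higher in both LPS libraries under TMM scaling (lower in median under total-count scaling). Complex I assembly factors lie lower in both LPS libraries. The nearest control and LPS libraries lie closer to each other than the replicates of either group.

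The assembly factors, which help build the complexes without staying in them, had mostly negative values. The 8 Ndufaf genes had sums of 64.9 and 71.5 CPM in control and 56.0 and 63.3 CPM in LPS. Both LPS libraries lay below both controls. The nearest control and LPS libraries (64.9 and 63.3 CPM) lay closer to each other than the replicates of either group. Of the 8 values 6 were below 0 (median -0.22, or -0.17 against the median of all genes). Against that median it was -0.0074 without LPS replicate 1 and 0.068 with no filter. Ndufaf7, a methyltransferase, had 8.21 and 8.33 CPM in control and 6.49 and 3.87 CPM in LPS (-0.67 ± 0.40, 95% interval -1.67 to 0.32, adjusted p = 0.43). Ndufaf2 had 7.68 and 7.17 CPM in control and 4.81 and 4.83 CPM in LPS, with both replicates of LPS low (-0.62 ± 0.35, 95% interval -1.48 to 0.24, adjusted p = 0.40). Ndufaf3 had 5.30 and 6.78 CPM in control and 6.49 and 8.94 CPM in LPS and overlapping groups (0.35 ± 0.37, 95% interval -0.59 to 1.28, adjusted p = 0.69); it overlaps Impdh2 on the opposite strand. None was called, counts were low (mean counts 16.5 to 69.0), and the interval lay within 2-fold for 2 of 8. Ndufaf2 was the most abundant of them per length, at 9.03 CPM per kb (libraries 7.10 to 11.3), a range that overlapped that of Ndufaf1 (8.16 CPM per kb). The 4 Sdhaf genes had sums of 59.3 and 66.3 CPM in control and 63.5 and 52.4 CPM in LPS, which overlapped. Their values ran from -0.48 (Sdhaf3) to -0.012 (Sdhaf1). Sdhaf2, which helps attach flavin to Sdha and is the most abundant of the 4 per length, had 41.3 and 47.3 CPM in control and 48.6 and 36.7 CPM in LPS (-0.055 ± 0.24, 95% interval -0.67 to 0.55, adjusted p = 0.94). It overlaps Cpsf7 on the opposite strand. Per length its libraries ran from 12.3 to 16.3 CPM per kb and overlapped those of the next gene (9.20 to 14.8).

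Ratios of summed counts within a library do not depend on how libraries are scaled against each other. Complex IV counts over complex I counts were 0.736 and 0.708 in control and 0.857 and 0.829 in LPS, a mean of 0.722 ± 0.0201 and 0.843 ± 0.0199 (SD, n = 2 each), 1.17 times higher in LPS. ATP synthase over complex I was 1.62 and 1.60 in control and 1.79 and 1.80 in LPS (1.11 times), and complex III over complex I was 0.586 and 0.59 in control and 0.659 and 0.634 in LPS (1.10 times). In these 3 ratios both LPS libraries lay above both controls by more than the replicates differed. Complex II over complex I was 0.339 and 0.338 in control and 0.329 and 0.341 in LPS and overlapped. Complex I assembly factors over complex I subunits were 0.0629 and 0.0647 in control and 0.0535 and 0.059 in LPS, lower in both LPS libraries. With Ndufa4 moved to complex IV its ratio was 1.19 times higher. The ratios were formed after the values were seen and sum genes of unequal length, so only their change between libraries can be read. With 2 libraries a group, an exact permutation test could not go below p = 0.33, and none was run. The median transcript length was 618 bases for the tested genes of complex IV, 731 for ATP synthase, 758 for complex I and 2066 for complex II. Over the 79 members Spearman's rho of the log2 fold change was -0.17 with length and 0.35 with the mean count, as a description of genes that share the same 4 libraries. The part of length or count in the order of the complexes was not tested.

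**Figure D4:**
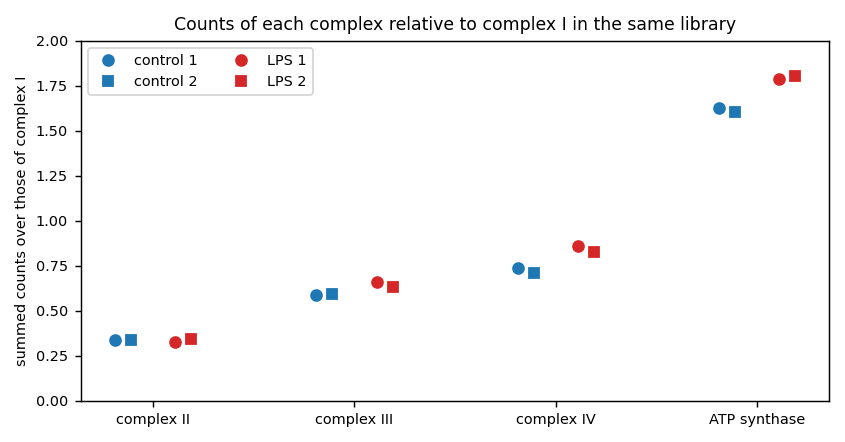
Summed counts of the tested genes of complexes II, III, IV and ATP synthase divided by those of complex I in the same library (vertical axis), for control (blue) and LPS (red) libraries. The ratio of complex IV was at most 0.736 in control and at least 0.829 in LPS, and that of complex II overlapped between groups.

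Members under the minimum mean count of 10 numbered 19. Of the 11 members with more than 1 accession 10 were among them (Atp5c1, Atp5g1, Cox4i1, Cox6b2, Cox7a2l, Ndufa7, Ndufs1, Ndufs6, Ndufs8 and Ndufv2), and of the 87 with 1 accession 9 were. Cox4i1 and Ndufs1, the ubiquitous form of Cox4 and the largest complex I core subunit, were listed at 0 in all 4 libraries, and Atp5c1, the gamma subunit that turns within ATP synthase, had counts of 5 and 7 in control, 4 and 4 in LPS. Of the rest, Atp5g1, Cox6b2, Cox7a2l, Ndufa7, Ndufs6, Ndufs8 and Ndufv2 had 0 to 3 counts in a library. Respiring cells in general use Cox4i1, Ndufs1 and Atp5c1. Among all genes 11.7% of genes with more than 1 accession passed the count minimum, against 46.5% of genes with 1, so a low count of such a gene is not read as low expression here. Ndufs5, with 1 accession, was also listed at 0, and its pseudogene Ndufs5-ps had counts of 3 and 4 in control, 1 and 1 in LPS. Tissue-restricted forms with 1 accession were low. Ndufa4l2, a form of Ndufa4 known to be induced by hypoxia, had counts of 3 and 4 in control, 1 and 1 in LPS. Cox4i2, the lung form of Cox4, had counts of 0 and 4 in control, 1 and 1 in LPS. The muscle form Cox6a2 had counts of 4 and 0 in control, 2 and 2 in LPS. Cox7a1, also a muscle form, had counts of 4 and 5 in control, 5 and 5 in LPS. Cox8b and Cox7b2 were at 0 in every library and Cox8c had counts of 1 and 1 in control, 1 and 2 in LPS. For the pairs that can be compared per length, Cox6a1 (52.2 CPM per kb) stood far above Cox6a2 (0.744), Ndufa4 (166) above Ndufa4l2 (0.549), and Cox7a2 (109) above Cox7a1 (2.82). Exons of 22 of the 79 tested members overlap another coding gene, 4 of them on the same strand (Atp5o, Ndufb2, Ndufb8 and Ndufb9). Those on the opposite strand include members named above without this mark: Atp5a1 (with Haus1), Ndufa2 (with Tmco6), Uqcrc2 (with Pdzd9) and Sdhaf1 (with E130208F15Rik). How the authors' counting treated strand is not stated in what was used here. The 57 tested members with no such overlap found had a median log2 fold change of -0.013. Among these, Atp5md and Atp5pb were not found under these names in GENCODE M21, so their overlap was not assessed.

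Of genes that serve the chain without being members by name, 4 were called by edgeR, in lists whose shares of calls can be read beside the 6.55% of all genes called higher. Of 18 tested electron carriers and other chain genes (of 24 listed), 1 rose and 0 fell (median 0.21), and DESeq2 called 2, AA467197 and Cycs. An unadjusted p under 0.05 by edgeR was found for 5 of the 18, beside 21.3% of all genes. The gene that rose was AA467197 (chr2:122637887-122641076, also called Nmes1), a paralog of Ndufa4 whose product is known to take the place of Ndufa4 in complex IV in inflamed cells. It had counts of 3 and 2 in control, 81 and 45 in LPS. On the CPM scale this was 0.795 and 0.388 CPM in control and 19.5 and 10.9 CPM in LPS (4.68 ± 0.59, 95% interval 3.21 to 6.14, adjusted p = 0.0089), and its adjusted p lay between 2.6e-06 and 0.029 over the settings without a block. Ndufa4 itself did not pass the test, as given above, and per length was the more abundant of the 2 in every library, at 151 CPM per kb or more against at most 24.6 for AA467197. Cytochrome c, encoded by Cycs, had 109 and 154 CPM in control and 258 and 255 CPM in LPS. Both LPS libraries of Cycs lay above the controls by about 2-fold, short of edgeR's threshold (0.96 ± 0.23, 95% interval 0.38 to 1.54, adjusted p = 0.071), while DESeq2 called it (adjusted p = 0.029). The edgeR value without control replicate 1 was 0.73 and without control replicate 2 1.21. Cyc1, the cytochrome subunit of complex III that the name rule leaves out, had 53.5 and 50.8 CPM in control and 63.0 and 58.2 CPM in LPS (0.22 ± 0.20, 95% interval -0.29 to 0.72, adjusted p = 0.63).

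Among assembly and metal delivery factors, 2 of 27 tested genes (40 listed) rose and 0 fell, with a median of -0.13, beside 6.55% of all genes called higher. DESeq2 called the same 2 genes. An unadjusted p under 0.05 by edgeR was found for 4 of the 27, beside 21.3% of all genes. Cox17, which carries copper to complex IV, had 32.0 and 33.7 CPM in control and 83.9 and 70.6 CPM in LPS (1.23 ± 0.22, 95% interval 0.69 to 1.77, adjusted p = 0.026). It overlaps the model Gm21987, and its adjusted p lay between 0.0044 and 0.22 over the settings without a block. The call of Cox17 was lost with total-count scaling (log2 fold change 0.79, edgeR adjusted p = 0.11), with limma-trend and when any 1 library was left out. Its log2 fold change and edgeR adjusted p were 1.18, 0.064 and 1.24, 0.053 on leaving out the first or the second control, and 1.10, 0.22 and 1.35, 0.094 on leaving out the first or the second LPS library. Coa5, a complex IV assembly factor, had 203 and 183 CPM in control and 603 and 449.7 CPM in LPS (1.45 ± 0.22, 95% interval 0.89 to 2.00, adjusted p = 0.017), a call lost without LPS replicate 1 (log2 fold change and edgeR adjusted p 1.22, 0.11; adjusted p between 0.0001 and 0.11 over settings). The mitochondrial ribosome, which makes the subunits encoded in mitochondrial DNA, had 1 of 72 tested genes higher and 0 lower (median 0.032). The gene was Mrpl52, with 18.8 and 25.4 CPM in control and 47.6 and 64.0 CPM in LPS (1.33 ± 0.28, 95% interval 0.63 to 2.03, adjusted p = 0.048), with an adjusted p between 0.0092 and 0.24 over settings. Its call was lost with total-count scaling (log2 fold change 0.89, edgeR adjusted p = 0.16), with limma-trend, with a mean count of at least 50, and on leaving out the first control (log2 fold change and edgeR adjusted p 1.13, 0.12), the first LPS library (1.53, 0.12) or the second LPS library (1.10, 0.24). Over the cytosolic ribosome, a class of short abundant transcripts like the members, 0 of 70 genes were called higher and 0 lower by edgeR (median 0.049). By edgeR 2 had an unadjusted p under 0.05, beside 21.3% of all genes, and DESeq2 called 0.

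**Figure D5:**
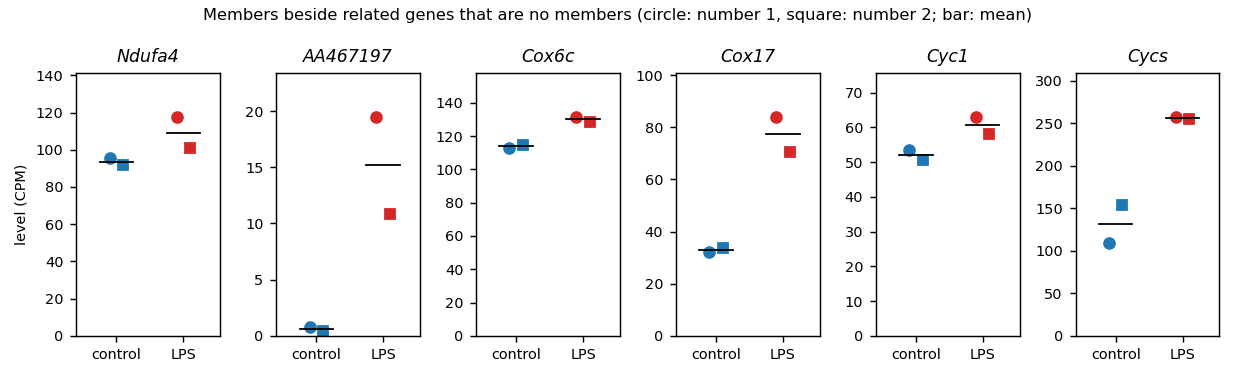
Level (vertical axes, CPM, each from 0) in the 2 control (blue) and 2 LPS (red) libraries of the members Ndufa4 and Cox6c and of related genes that are no members; bars are group means. AA467197 and Cox17 were called higher by edgeR without a block, and Ndufa4, Cox6c, Cyc1 and Cycs were not (DESeq2 called Cycs).

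Regulators of mitochondrial gene expression held 0 calls higher and 0 lower among 14 tested genes (24 listed; median 0.24). edgeR's unadjusted p was under 0.05 for 4 of them (Esrra, Hif1a, Nfe2l2 and Twnk), beside 21.3% of all genes tested. DESeq2 called 1, beside 10.5% of the genes to which it gave an adjusted p. This was Nfe2l2, an antioxidant response factor (edgeR log2 fold change 0.98 ± 0.22, 95% interval 0.42 to 1.54, adjusted p = 0.061 by edgeR and 0.023 by DESeq2). Nfe2l2 and Twnk were chosen after their values were seen. Esrra, a nuclear receptor that activates respiratory genes, had 28.9 and 18.8 CPM in control and 55.8 and 40.6 CPM in LPS (1.02 ± 0.32, 95% interval 0.24 to 1.81, adjusted p = 0.14), with both LPS libraries higher and exons that overlap Trmt112. Gabpa, the DNA-binding part of GABP, had 60.9 and 63.0 CPM in control and 79.6 and 83.1 CPM in LPS (0.39 ± 0.19, 95% interval -0.092 to 0.88, adjusted p = 0.34), and its exons overlap Atp5j on the opposite strand. Hif1a, the hypoxia factor, had 223 and 193 CPM in control and 323 and 268 CPM in LPS with both LPS libraries higher (0.51 ± 0.20, 95% interval 0.0015 to 1.01, adjusted p = 0.23). Tfam, which packs and transcribes mitochondrial DNA, had 14.8 and 16.5 CPM in control and 15.6 and 23.2 CPM in LPS, with overlapping groups (0.31 ± 0.30, 95% interval -0.45 to 1.06, adjusted p = 0.66). The coactivator genes Pprc1 and Ppargc1b had values of 0.65 (interval -0.62 to 1.91) and 0.042 (interval -1.70 to 1.78), both with overlapping groups. Ppargc1a and Nrf1, each with more than 1 accession, were at 0 in every library and give no information. Carriers and uncoupling genes had 0 and 0 calls among 9 tested (median -0.067). An unadjusted p under 0.05 by edgeR was found for 0, beside the same 21.3% of all genes, and DESeq2 called 0. Ucp2, an inner membrane carrier, had 836 and 424 CPM in control and 576 and 313 CPM in LPS, and libraries numbered 1 were higher in both groups (-0.50 ± 0.43, 95% interval -1.57 to 0.56, adjusted p = 0.60). Members with NRF1 or ETS letters in the promoter window had a median log2 fold change of -0.044 (34 tested genes, -0.48 to 0.33) and those without 0.026 (34 genes, -0.78 to 0.40), so the ranges overlapped widely.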

How the data were processed

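Total RNA of primary microglia (2 control and 2 LPS libraries) was sequenced as paired ends from rRNA-depleted directional libraries, per the labels' protocols. Per the submitters' processing notes, the authors used build mm10 and the tools HTSeq 0.6.1, TopHat2 2.0.10, Trimmomatic 0.33, Cufflinks 2.2.1 and CASAVA 1.8.2, with no mode, strand or annotation stated in what was used here. The deposited values are whole numbers for 32915 RefSeq accessions in 4 libraries, under a name that calls them normalized. Totals differ between libraries, so the deposited values were treated as read counts per accession, as the authors deposited them. Symbols came from a RefSeq table of GRCm38.p6 (32487) or GENCODE M21 (187); 241 kept their identifier. Genes whose counts averaged 10 or more (9548 of 24148) were tested, LPS against control, with edgeR 4.0.16 (R 4.3.3; quasi-likelihood, TMM, two-sided, no covariate, Benjamini-Hochberg over all genes tested at 0.05). A standard error is the log2 fold change divided by the square root of F, and intervals use the t distribution. edgeR's common biological coefficient of variation came to 0.283. No 2 replicates were the same library within counting error (chi-square over its degrees of freedom 34.3 and 25.4). Transcript lengths came from GENCODE M21 (97 of 98 members). Alternatives were DESeq2 1.42.0, its size factors, total-count scaling, limma-trend (limma 3.58.1) on log2(count + 1), other count minimums, genes with 1 accession, each library left out, and a replicate block. The test was checked on simulated counts. For 1 member and 1 marker, single values are not reported here.

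Named genes were members with a call, the highest by length, largest and smallest log2 fold change of each complex, isoform pairs, core subunits, and called or preselected genes of the other lists; others are said to be chosen after their values were seen. The members, lists and tests were chosen with earlier results of these data known.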

Additional observations from a re-analysis of the deposited data

How the results depend on the processing

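No member was called under any setting without a replicate block. Replicate numbers were shared between groups but nothing says that they pair samples; deviations of same-numbered libraries correlated at 0.673 over all genes and 0.498 over members. With the number as a replicate block, edgeR called 1676 genes higher and 1258 lower, and 1 member, Cox7c (0.38, adjusted p = 0.0385), where 17.6% of all genes were called higher and 13.2% lower. The block also called 5 regulators higher (Esrra, Gabpa, Hif1a, Nfe2l2 and Pprc1) and 1 lower (Twnk), 5 electron carriers and other chain genes higher (Cycs among them, adjusted p = 5.3e-06) and 0 lower, 4 assembly and metal delivery factors higher and 2 lower, 6 mitochondrial ribosome genes higher and 2 lower, 2 cytosolic ribosome genes higher and 2 lower, and Ucp2 lower. Total-count scaling gave 489 genes lower, and medians of -0.38 for all members, -0.51 for complex I, -0.55 for complex II, -0.33 for complex III, -0.16 for complex IV, -0.36 for ATP synthase, -0.65 for complex I assembly factors, -0.66 for complex II assembly factors; over named genes other than Lars2, a choice made after seeing the data, it gave 675 genes lower and medians of -0.44 for all members, -0.55 for complex I, -0.61 for complex II, -0.39 for complex III, -0.23 for complex IV, -0.42 for ATP synthase, -0.71 for complex I assembly factors, -0.71 for complex II assembly factors. With limma-trend, medians were -0.051 for all members, -0.14 for complex I, -0.20 for complex II, 0.18 for complex IV, -0.32 for complex I assembly factors. Without a filter they were 0.15 for all members, 0.031 for complex I, -0.0090 for complex II, 0.36 for complex IV, -0.11 for complex I assembly factors, and with a mean count of at least 50 -0.034 for all members, -0.17 for complex I, -0.22 for complex II, 0.17 for complex IV. Over the 4 settings that each leave out 1 library, genes called higher numbered 335 to 629 (the lowest without LPS replicate 1) and lower 33 to 260 (33 without LPS replicate 1, 39 without LPS replicate 2 and 260 without control replicate 2), and medians were -0.028 to 0.071 for all members, -0.081 to 0.057 for complex I, -0.16 to -0.045 for complex II, 0.012 to 0.15 for complex III, 0.18 to 0.28 for complex IV, 0.065 to 0.16 for ATP synthase, -0.34 to -0.059 for complex I assembly factors, -0.27 to -0.056 for complex II assembly factors. Complex IV stood above the median of all genes in each setting, by 0.20 to 0.54, and the median of complex I was above 0 without LPS replicate 1, LPS replicate 2 or control replicate 2, and with no filter. Low counts limit what can be said of assembly factors and of members with more than 1 accession.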
